A study of Mus musculus with 24 samples.

Results

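The genes that make, move, store and export cholesterol were followed in whole mouse kidney after loss of megalin (Lrp2), an endocytic receptor with many ligands on the apical face of proximal tubule cells. The set held 31 genes listed by symbol, of 54532 gene identifiers in the count tables. It comprised 7 genes of the mevalonate steps, 3 of the squalene and lanosterol steps, 9 of the steps from lanosterol to cholesterol, 4 sterol sensing regulators, 4 genes of intracellular transfer and esterification and 4 genes of efflux and its nuclear receptors. All 31 passed the filter on low counts, and 17286 genes were tested in all.

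RNA was sequenced from kidneys of proximal tubule cell specific Lrp2 knockout mice and wild-type littermates, which the labels call PTC LRP2-SM22 -/- and +/+. Every mouse was fed Western diet, for either 2 or 12 weeks, giving 4 groups of 6 libraries, with both genotypes at each duration. Because the wild-type mice ate the same diet, each genotype comparison was made under it. The sources used here give neither the Cre driver, strain background, sex or age nor the meaning of SM22 in the name of the line. Nothing in the labels ties each library to its own mouse, and p-values therefore cover only the spread among these libraries.

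Cholesterol is built from acetyl-CoA through mevalonate, squalene and lanosterol, and the transcription factor SREBP2 drives the enzymes of this route when membrane sterol is low. SCAP carries SREBP2 to its activating proteases, and INSIG1 and INSIG2 hold SCAP back when sterol is plentiful. Oxysterols that accompany a sterol surplus activate the liver X receptors (LXR), which raise the exporters ABCA1 and ABCG1. In the kidney, the proximal tubule takes up filtered lipid-carrying proteins through megalin.

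Library totals were 15.6 to 34.1 megacounts in wild-type and 16.3 to 25.2 megacounts in knockout libraries at 2 weeks, and 11.4 to 14.5 and 11.3 to 15.2 megacounts at 12 weeks. Levels are in CPM, counts per megacount after TMM scaling, given as mean ± SD with n = 6 libraries, and differences are log2 fold changes of knockout against wild type with their standard error (SE) and the edgeR adjusted p. A gene was called when that adjusted p was under 0.05. Lrp2 itself was 2000 ± 261 CPM in wild-type and 352 ± 142 CPM in knockout libraries at 2 weeks, a log2 fold change of -2.49 (SE 0.23, adjusted p = 2.4e-06), and 1880 ± 382 against 323 ± 73.1 CPM at 12 weeks (-2.51, SE 0.18, adjusted p = 3.9e-07). The predicted gene Gm42418 took no counts at 2 weeks and 0.496% to 3.54% of counts at 12 weeks, so diet duration cannot be told apart from differences in how the libraries of each duration were made or processed.

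Knockout kidneys had more mRNA of the cholesterol exporters Abca1 and Abcg1 and of the esterifying enzyme Soat1 at both durations. They had less of the synthesis genes Mvd and Ebp at both durations. The calls of Abcg1 at both durations, and of Soat1 and Ebp at 12 weeks, were lost in some other fits, as given below. The synthesis gene Acat2 was called lower at both durations, but its call at 2 weeks is uncertain. With the counts of its near-identical copy Acat3 added, its log2 fold change at 2 weeks was 0.04 (adjusted p = 0.78). Other synthesis genes were called at a single duration. Fdft1, Sqle and Msmo1 were higher and Cyp51 was lower at 2 weeks, while Hmgcs1, Hsd17b7 and Sc5d were lower and Pmvk was higher at 12 weeks. The calls of Hsd17b7 and Pmvk are uncertain, as most omissions of a single library ended them. None of the 31 genes was called in the test of whether the genotype effect differed between durations. At 2 weeks 10 of the 31 genes were called, 6 higher and 4 lower. The 10 genes are 32.3% of the 31, beside 31.6% of all tested genes (18.2% higher, 13.4% lower). At 12 weeks 12 were called, 4 higher and 8 lower, or 38.7% beside 38.5% of all tested genes (20.7% higher, 17.7% lower). The totals of called genes were near the background at both durations, and the results below concern single genes and steps. Single libraries moved the counts by direction: without knockout replicate 2 at 2 weeks 8 genes were called lower, and at 12 weeks 1 was called higher without knockout replicate 2, 2 higher without wild-type replicate 5, and 2 higher and 5 lower without knockout replicate 5. Of the 31 genes, 6 were called in the same direction at both durations, 4 at 2 weeks alone, 6 at 12 weeks alone and 15 at neither. The genes not called had log2 fold changes from -0.34 to 0.27 at 2 weeks and from -0.44 to 0.27 at 12 weeks.

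Over the 19 synthesis genes together, 3 were called higher, 4 lower and 12 not called at 2 weeks. Of all tested genes, 18.2% were called higher and 13.4% lower. The median log2 fold change was -0.17 beside -0.01 over all tested genes. At 12 weeks 1 was called higher, 6 lower and 12 not called, beside 20.7% higher and 17.7% lower of all tested genes. The median was -0.20 beside 0.00. Per kilobase of exon, Hmgcs1 had the highest level of the 31 genes in every group, at 118 CPM per kb in wild-type libraries at 2 weeks, and Cyp51 was next at 102. These 2 values differed by less than the spread of Cyp51 over libraries (SD 19.3).

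Among the mevalonate steps, Hmgcs1 encodes the cytosolic synthase that makes HMG-CoA, the substrate of the rate-limiting reductase. At 12 weeks its lowest, median and highest levels were 605, 630 and 741 CPM in wild-type libraries and 322, 438 and 613 CPM in knockout libraries. The highest knockout library lay above 3 of the wild-type libraries, and the other knockout libraries lay below all of them. The log2 fold change was -0.49 (SE 0.13, adjusted p = 0.0064), or 649 ± 53.7 against 452 ± 98.8 CPM. At 2 weeks wild-type libraries ranged from 453 to 596 CPM around a median of 546, and knockout libraries from 375 to 765 CPM around a median of 425. Knockout replicate 2 held the value of 765 CPM and lay above every wild-type library. It also had the most Lrp2 of its group, 584 CPM beside 192 to 432 CPM. With this library the log2 fold change of Hmgcs1 was -0.17 (SE 0.15, adjusted p = 0.40), and without it -0.36 (adjusted p = 0.0045).

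Acat2, the cytosolic acetoacetyl-CoA thiolase that opens the pathway, had its lowest, median and highest levels at 63.3, 75.6 and 90.0 CPM in wild-type libraries at 12 weeks and at 42.3, 52.0 and 59.8 CPM in knockout libraries. The groups did not overlap, and the log2 fold change was -0.56 (SE 0.10, adjusted p = 0.00072). At 2 weeks the values were 66.1, 82.9 and 92.8 CPM against 60.3, 64.7 and 80.0 CPM, which overlapped, with a log2 fold change of -0.25 (SE 0.09, adjusted p = 0.037). Acat2 lies beside a near-identical copy, Acat3, and reads of the pair may have been split between them in counting. Acat3 rose from 13.1 ± 2.13 to 27.8 ± 4.13 CPM at 2 weeks (log2 fold change 1.12, SE 0.12, adjusted p = 1.4e-06) and from 21.1 ± 3.31 to 25.9 ± 3.65 CPM at 12 weeks (0.32, SE 0.12, adjusted p = 0.039). With the counts of both genes summed, the difference was 0.04 at 2 weeks (adjusted p = 0.78) and -0.32 at 12 weeks (adjusted p = 0.022). The call of Acat2 at 2 weeks was also lost without any of 9 of the 12 libraries (knockout replicate 1, 3, 4, 5 or 6, or wild-type replicate 2, 3, 5 or 6), with an adjusted p up to 0.097, and is uncertain.

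Mvd, which decarboxylates mevalonate diphosphate to isopentenyl diphosphate, fell at both durations. Its lowest, median and highest levels were 43.6, 55.1 and 62.5 CPM in wild-type and 33.2, 42.4 and 49.0 CPM in knockout libraries at 2 weeks, and 47.0, 50.5 and 57.6 against 30.4, 38.4 and 48.4 CPM at 12 weeks. The ranges met at their edges at each duration, with the knockout median below every wild-type library. The log2 fold changes were -0.36 (SE 0.10, adjusted p = 0.011) and -0.38 (SE 0.10, adjusted p = 0.006), and the calls held with any single library left out. Idi1, the isomerase of the next step, had differences of -0.34 (SE 0.17, adjusted p = 0.16) and -0.44 (SE 0.18, adjusted p = 0.071). Its knockout libraries at 2 weeks spread from 59.8 to 145 CPM around 85.5 ± 30.2.

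Pmvk, the phosphomevalonate kinase, was the mevalonate gene that rose, from 11.3 ± 2.06 to 14.5 ± 2.71 CPM at 12 weeks (log2 fold change 0.38, SE 0.14, adjusted p = 0.047). The groups overlapped, and the call was lost without knockout replicate 1, 2, 3 or 4 or wild-type replicate 3, 4, 5 or 6, with an adjusted p up to 0.11. It was also lost under RLE scaling (adjusted p = 0.051), without the filter (0.054) and in the fit on all 24 libraries (0.082). Its difference at 2 weeks was 0.26 (SE 0.16, adjusted p = 0.23). Mvk, the mevalonate kinase before it, stood at 11.2 ± 1.49 and 11.3 ± 2.00 CPM at 2 weeks and at 11.2 ± 1.16 and 10.5 ± 2.25 CPM at 12 weeks, and was not called. Fdps, the farnesyl diphosphate synthase, had group means of 0.598 to 0.826 CPM with 1 to 32 counts per library, too few for a statement about its change.

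The 3 steps through squalene and lanosterol behaved differently from each other. Fdft1, squalene synthase, had its lowest, median and highest levels at 20.2, 23.1 and 27.3 CPM in wild-type and 24.9, 32.8 and 35.1 CPM in knockout libraries at 2 weeks. Sqle, the squalene epoxidase that controls flux after mevalonate, had 71.6, 95.6 and 112 CPM against 102, 121 and 145 CPM. For both genes the knockout median lay above every wild-type library and the ranges overlapped. Fdft1 rose with a log2 fold change of 0.46 (SE 0.10, adjusted p = 0.0014) and Sqle with 0.41 (SE 0.12, adjusted p = 0.013), or 1.37-fold and 1.33-fold. Lss, which closes the ring to lanosterol, had -0.17 (SE 0.11, adjusted p = 0.24).

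At 12 weeks neither Fdft1 nor Sqle was called. Fdft1 stood at 19.6 ± 2.62 CPM in wild-type and 21.9 ± 4.55 CPM in knockout libraries (log2 fold change 0.19, SE 0.13, adjusted p = 0.28). Sqle stood at 78.0 ± 7.76 and 77.4 ± 17.8 CPM (0.02, SE 0.13, adjusted p = 0.93), and the sign of that difference changed between ways of fitting. The exons of Fdft1 overlap those of Ctsb on the opposite strand over 774 bases, or 18.3% of its exon length, and whether the counting used strand is not given. Ctsb, a lysosomal protease with far more counts, rose at 2 weeks from 493 ± 35.1 to 607 ± 58.4 CPM (log2 fold change 0.33, SE 0.08, adjusted p = 0.0059) and had 0.09 (SE 0.08, adjusted p = 0.44) at 12 weeks. Its part in the Fdft1 counts was not tested.

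**Figure D1:**
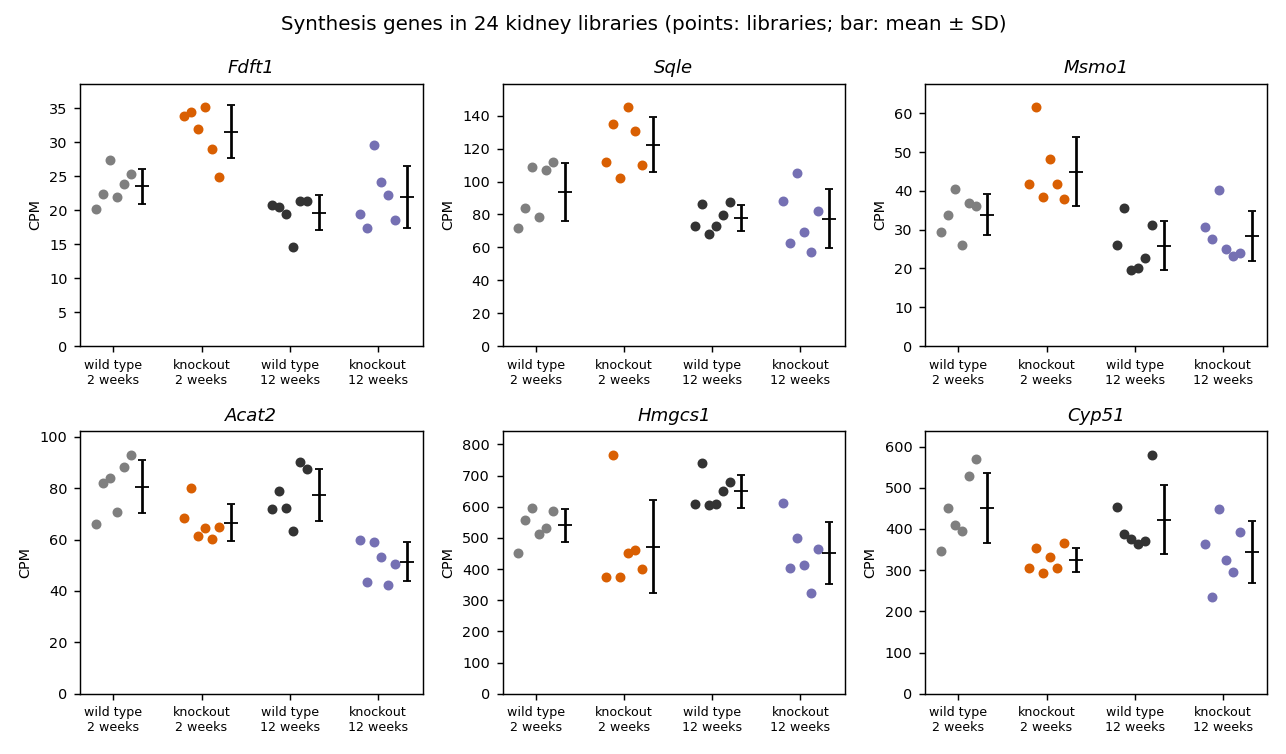
CPM (y axis, from 0) of 6 synthesis genes in each library (points) of the 4 groups, with mean ± SD as bars. Fdft1, Sqle and Msmo1 are higher in knockout libraries at 2 weeks, and Acat2 and Hmgcs1 are lower at 12 weeks, where the Acat2 groups do not overlap.

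Along the 9 steps from lanosterol to cholesterol, the first enzymes moved in opposite directions at 2 weeks. Cyp51, the lanosterol demethylase, had its lowest, median and highest levels at 347, 431 and 571 CPM in wild-type and 294, 318 and 365 CPM in knockout libraries. Msmo1, the methylsterol monooxygenase that acts shortly after it, had 26.1, 35.1 and 40.5 CPM against 37.9, 41.8 and 61.5 CPM. Most knockout libraries lay below every wild-type library for Cyp51 and above most of them for Msmo1, with overlap at the edges. Cyp51 fell by 0.44 on the log2 scale (SE 0.11, adjusted p = 0.0039) and Msmo1 rose by 0.44 (SE 0.12, adjusted p = 0.0097). At 12 weeks the differences were -0.27 (SE 0.15, adjusted p = 0.18) and 0.16 (SE 0.16, adjusted p = 0.46).

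Ebp, the isomerase that shifts the sterol double bond, fell at both durations. Its lowest, median and highest levels were 62.0, 75.1 and 83.6 CPM against 52.1, 61.0 and 65.9 CPM at 2 weeks, and 67.3, 78.4 and 98.9 CPM against 49.2, 64.5 and 74.1 CPM at 12 weeks. Knockout medians lay below every wild-type library at both durations. The log2 fold changes were -0.27 (SE 0.08, adjusted p = 0.017) and -0.33 (SE 0.11, adjusted p = 0.03), the later call lost without knockout replicate 2 or 5 or wild-type replicate 3, 5 or 6 (adjusted p up to 0.073). Sc5d, the sterol desaturase, had 48.4, 56.8 and 78.4 CPM against 37.2, 40.6 and 52.0 CPM at 12 weeks and fell by 0.44 (SE 0.11, adjusted p = 0.0063), after -0.17 (SE 0.07, adjusted p = 0.063) at 2 weeks. Its knockout median, too, was below every wild-type library at 12 weeks. Hsd17b7, a ketosteroid reductase, fell by 0.33 at 12 weeks (SE 0.12, adjusted p = 0.049), a call lost without any 1 of 9 of the 12 libraries, with an adjusted p up to 0.11. Knockout replicates 1 and 3 and wild-type replicate 4 were the libraries that could be left out without losing it. Upper-quartile scaling (adjusted p = 0.06), no filter (0.06) and a filter at a mean of 1 CPM (0.051) also ended it. Dhcr7, Lbr, Nsdhl and Tm7sf2, the reductases and the decarboxylating dehydrogenase of the route, were called at neither duration, with values from -0.27 for Tm7sf2 to 0.18 for Dhcr7, both at 2 weeks.

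Proximal tubule markers, which are expressed by the cells that lost megalin, were lower in the same libraries. Of 17 such markers, 14 were called lower at 2 weeks and 15 at 12 weeks, beside 13.4% and 17.7% of all tested genes. Their summed level was 40800 to 54500 CPM in wild-type and 31000 to 48000 CPM in knockout libraries at 2 weeks, and 52000 to 62100 against 27900 to 43600 CPM at 12 weeks. A single marker, Kap, made up much of these sums. In knockout replicate 2 at 2 weeks, the library with the sum of 48000 CPM, Kap gave 28700 CPM. The highest wild-type Kap level at 2 weeks was 25600 CPM. In whole kidney RNA, fewer cells of a type and less RNA per cell cannot be told apart. The part of these markers in the lower synthesis genes was not tested.

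Promoter sequence from RefSeq (GRCm38.p6) was available for 25 of the 31 genes, as windows from 250 bases before to 50 bases after each annotated start. The 250 bases upstream are shown for 3 synthesis genes that fell, Hmgcs1 (chr13:119690101-119690350 on the plus strand), Mvd (chr8:122443423-122443672 on the minus strand) and Ebp (chrX:8193513-8193762 on the minus strand), and for the exporter that rose, Abca1 (chr4:53159896-53160145 on the minus strand). Each lies outside the annotated gene, directly before the RefSeq start, and is printed 5′ to 3′ along the gene. Capitals mark the sterol regulatory element match of Hmgcs1 and each CCAAT, the core of the NF-Y box, which reads ATTGG where it lies on the other strand.
Hmgcs1: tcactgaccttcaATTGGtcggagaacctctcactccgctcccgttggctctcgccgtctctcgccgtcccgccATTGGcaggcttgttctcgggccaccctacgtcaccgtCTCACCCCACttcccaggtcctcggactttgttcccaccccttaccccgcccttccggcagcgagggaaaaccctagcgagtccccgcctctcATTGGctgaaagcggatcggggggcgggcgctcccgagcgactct
Mvd: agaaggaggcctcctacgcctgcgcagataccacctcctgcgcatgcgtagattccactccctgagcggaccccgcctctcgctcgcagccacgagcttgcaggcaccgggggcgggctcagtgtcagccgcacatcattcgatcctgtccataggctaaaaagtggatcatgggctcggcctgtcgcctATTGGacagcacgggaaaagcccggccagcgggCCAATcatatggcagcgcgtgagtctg
Ebp: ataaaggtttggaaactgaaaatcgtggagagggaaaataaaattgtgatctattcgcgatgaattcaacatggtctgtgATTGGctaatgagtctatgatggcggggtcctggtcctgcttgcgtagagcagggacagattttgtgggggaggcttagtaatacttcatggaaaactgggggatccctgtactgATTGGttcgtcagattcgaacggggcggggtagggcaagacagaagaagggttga
Abca1: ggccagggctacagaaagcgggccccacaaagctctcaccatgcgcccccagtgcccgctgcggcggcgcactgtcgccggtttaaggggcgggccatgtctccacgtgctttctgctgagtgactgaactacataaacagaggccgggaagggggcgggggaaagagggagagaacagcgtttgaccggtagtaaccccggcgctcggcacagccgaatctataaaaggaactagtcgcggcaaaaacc
Hmgcs1 has 3 CCAAT matches in these bases, Mvd and Ebp have 2 each, and Abca1 has none.

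CCAAT, on either strand, occurred in the 300-base windows of 20 of the 25 genes and of 15 of the 16 synthesis genes with a window, beside 37.4% of all 32851 windows and 41.1% of the 27025 genes they belong to. The element core CACCCCAC was found in Hmgcs1, 136 bases before the start, and in Acat2, 181 bases before it, and in 2.87% of all windows. This core is contained in the 10-base sterol regulatory element, which had no exact match in the 25 genes (0.0913% of all windows) and a match with at most 1 mismatch in Hmgcs1, Srebf2 and Nsdhl (1.95% of all windows). The exact direct-repeat LXR element had no match either (0.0152% of all windows). It was searched without mismatches only, unlike the sterol regulatory element, so variants of it, in Abca1 as elsewhere, were neither looked for nor marked. A match to these letters does not show that a factor binds, and a missing match says only that these letters are not in the window. Genes with CCAAT in their windows included Mvd, Ebp and Hmgcs1, which fell, and Msmo1, which rose at 2 weeks. Fdft1 and Sqle, which also rose at 2 weeks, had no window and were not searched, and neither was Fdps.

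The 4 sterol sensing regulators moved little. Srebf2, which encodes SREBP2, stood at 101 ± 15.5 CPM in wild-type and 99.8 ± 8.28 CPM in knockout libraries at 2 weeks, and at 95.6 ± 12.8 and 90.9 ± 7.71 CPM at 12 weeks. The log2 fold changes were 0.01 (SE 0.09, adjusted p = 0.97) and -0.04 (SE 0.08, adjusted p = 0.72). SREBP2 is activated by cleavage, which mRNA levels do not show. Insig2, an endoplasmic reticulum anchor of SCAP, fell at 12 weeks from 55.4 ± 3.90 to 46.3 ± 3.65 CPM (-0.23, SE 0.07, adjusted p = 0.013) and had -0.16 (SE 0.06, adjusted p = 0.058) at 2 weeks. At 12 weeks its lowest wild-type library, at 50.3 CPM, lay below the highest knockout library, at 51.9 CPM.

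Insig1, the relative of Insig2 and itself an SREBP target, had -0.33 (SE 0.15, adjusted p = 0.11) at 2 weeks and -0.32 (SE 0.16, adjusted p = 0.13) at 12 weeks. Its libraries were widely spread, from 42.6 to 82.3 CPM among wild-type libraries at 2 weeks alone. Scap, the escort of SREBP2, had -0.15 (SE 0.08, adjusted p = 0.16) and -0.18 (SE 0.07, adjusted p = 0.064). Neither gene was called at either duration.

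Among the genes of intracellular transfer and esterification, Soat1 rose at both durations. It encodes the acyltransferase that turns free cholesterol into storable esters. Its lowest, median and highest levels were 17.5, 21.7 and 27.5 CPM in wild-type and 25.3, 28.0 and 32.4 CPM in knockout libraries at 2 weeks, and 21.1, 21.8 and 25.1 against 23.2, 24.9 and 29.8 CPM at 12 weeks. The ranges overlapped at both durations, though the knockout median exceeded all but 1 wild-type library at 12 weeks and every one at 2 weeks. The log2 fold changes were 0.38 (SE 0.10, adjusted p = 0.0062) and 0.24 (SE 0.08, adjusted p = 0.022). The call at 12 weeks was lost without knockout replicate 2 or knockout replicate 5, with an adjusted p up to 0.057, and also without the filter on low counts (adjusted p = 0.057) and in the fit on all 24 libraries (adjusted p = 0.068).

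Npc1 and Npc2, which pass cholesterol out of the lysosome, were not called. Npc1 had 0.08 (SE 0.09, adjusted p = 0.51) at 2 weeks and 0.27 (SE 0.11, adjusted p = 0.076) at 12 weeks, and Npc2 had 0.19 (SE 0.12, adjusted p = 0.23) and 0.18 (SE 0.07, adjusted p = 0.069). Stard4, a cytosolic sterol carrier, had -0.11 (SE 0.09, adjusted p = 0.42) and -0.36 (SE 0.16, adjusted p = 0.098). Its libraries at 12 weeks ran from 103 to 165 CPM in wild type and from 68.2 to 131 CPM in knockout. Most knockout libraries lay below every wild-type library, and the highest, replicate 3, lay inside the wild-type range.

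The exporters showed the largest rises of the 31 genes at both durations. Abca1, which loads cholesterol and phospholipid onto lipid-poor apolipoproteins, had its lowest, median and highest levels at 44.1, 48.4 and 66.0 CPM in wild-type and 66.9, 77.2 and 97.8 CPM in knockout libraries at 2 weeks. At 12 weeks they were 48.7, 59.5 and 73.5 CPM against 72.7, 90.9 and 129 CPM. The groups did not overlap at 2 weeks and did so by a single library on each side at 12 weeks. Abca1 was the 1 gene of the 31 whose groups were fully apart and higher at 2 weeks, beside 10.3% of all tested genes, and none was fully apart and lower, beside 6.32%. At 12 weeks none was fully apart and higher, beside 10.1%. Its log2 fold changes were 0.63 (SE 0.11, adjusted p = 0.00023) and 0.68 (SE 0.14, adjusted p = 0.0016), or 1.54-fold and 1.61-fold.

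Abcg1, which passes cholesterol to mature lipoprotein particles, had 7.85, 10.7 and 12.8 CPM against 10.9, 15 and 16.7 CPM at 2 weeks, and 9.12, 13.8 and 23.2 CPM against 17.4, 20.8 and 35.6 CPM at 12 weeks. Wild-type replicate 1 at 12 weeks, at 23.2 CPM, lay inside the knockout range, and the other wild-type libraries lay below it. The log2 fold changes were 0.49 (SE 0.12, adjusted p = 0.0053) and 0.75 (SE 0.25, adjusted p = 0.029). The call at 12 weeks was lost without knockout replicate 2 or 5, or wild-type replicate 2, 5 or 6, with an adjusted p up to 0.068 and a log2 fold change from 0.60 to 0.94 over all single omissions. The call at 2 weeks was lost in the fit on all 24 libraries (0.46, adjusted p = 0.074) and that at 12 weeks without the filter on low counts (0.76, adjusted p = 0.083).

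The LXR genes themselves did not rise. Nr1h3, which encodes LXR alpha, had its lowest, median and highest levels at 53.4, 56.8 and 68.5 CPM in wild-type and 37.7, 50.2 and 52.3 CPM in knockout libraries at 12 weeks. The groups did not overlap, as was so for 2 of the 31 genes in the lower direction, Nr1h3 and Acat2, and for 8.3% of all tested genes. The log2 fold change was -0.27 (SE 0.09, adjusted p = 0.026), after -0.18 (SE 0.08, adjusted p = 0.098) at 2 weeks, and the call was lost without knockout replicate 5, or wild-type replicate 1 or 2 (adjusted p up to 0.066). Nr1h2, which encodes LXR beta, had 0.03 (SE 0.08, adjusted p = 0.79) and -0.03 (SE 0.05, adjusted p = 0.66).

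**Figure D2:**
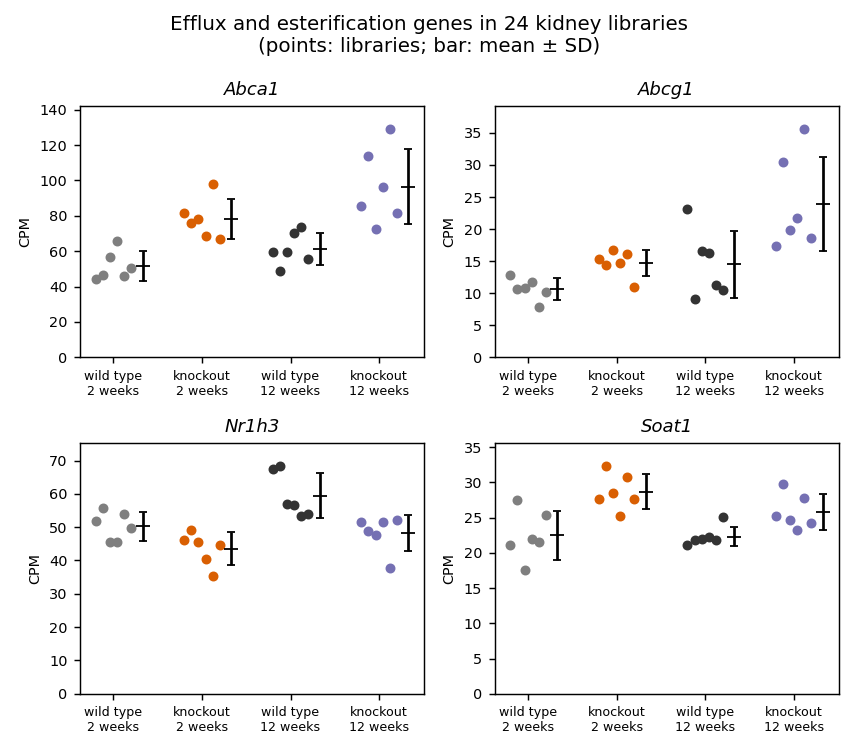
CPM (y axis, from 0) of Abca1, Abcg1, Nr1h3 and Soat1 in each library (points) of the 4 groups, with mean ± SD as bars. Abca1 groups are fully apart at 2 weeks, and Nr1h3 is lower in all knockout libraries at 12 weeks.

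Macrophages, which express both exporters strongly when they take up lipid, had higher marker levels in the same libraries. Of 17 macrophage markers, 16 were tested, of which 16 were called higher at 2 weeks and 15 at 12 weeks. Of all tested genes, 18.2% and 20.7% were called higher. No defining marker was at 0 in every library of any group. Gpnmb lay at up to 0.206 CPM in wild-type libraries at 2 weeks. At 12 weeks it lay at up to 0.531 CPM in them, apart from replicate 1 at 7.71 CPM. Gpnmb therefore passed the filter on low counts only through the knockout libraries, and its call adds little. Itgam was also low in wild type at 2 weeks, from 0.364 to 0.877 CPM. The summed level of the 17 markers was 329 to 435 CPM in wild-type and 1090 to 2450 CPM in knockout libraries at 2 weeks. At 12 weeks it was 297 to 728 against 1420 to 2960 CPM. A single marker, Cd74, made up much of these sums. In replicate 1 at 2 weeks it gave 207 of 394 CPM in wild type and 948 of 1670 CPM in knockout. Knockout replicates 5 and 2 at 12 weeks had the highest Abca1 levels, 129 and 114 CPM, the highest Abcg1 levels, 35.6 and 30.4 CPM, and the highest marker sums of their group, 2130 and 2960 CPM. Wild-type replicate 1 at 12 weeks, the highest of its group for Abcg1, also had the highest marker sum of its group, 728 CPM. The knockout library with the lowest sum at 2 weeks, replicate 6 at 1090 CPM, had the lowest Abca1 and Abcg1 of its group, 66.9 and 10.9 CPM. Other libraries did not follow that order. Wild-type replicate 5 at 12 weeks had the most Abca1 of its group, 73.5 CPM, and the lowest marker sum, 297 CPM. Knockout replicate 3 at 2 weeks had the highest sum of its group, 2450 CPM, with 78.4 CPM of Abca1, below the 97.8 CPM of replicate 5 at a sum of 1940 CPM. In wild type at 2 weeks, the most Abca1, 66.0 CPM in replicate 4, came with a sum of 379 CPM, and the highest sum, 435 CPM in replicate 2, came with 46.5 CPM of Abca1. Knockout replicate 2 at 12 weeks also had by far the most B cell markers, 1240 CPM beside 56.8 to 347 CPM in the rest of its group. Its T cell markers summed to 137 CPM, beside 28.1 to 48.3 CPM. The part of macrophages, B cells or T cells in the exporter levels was not tested.

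**Figure D3:**
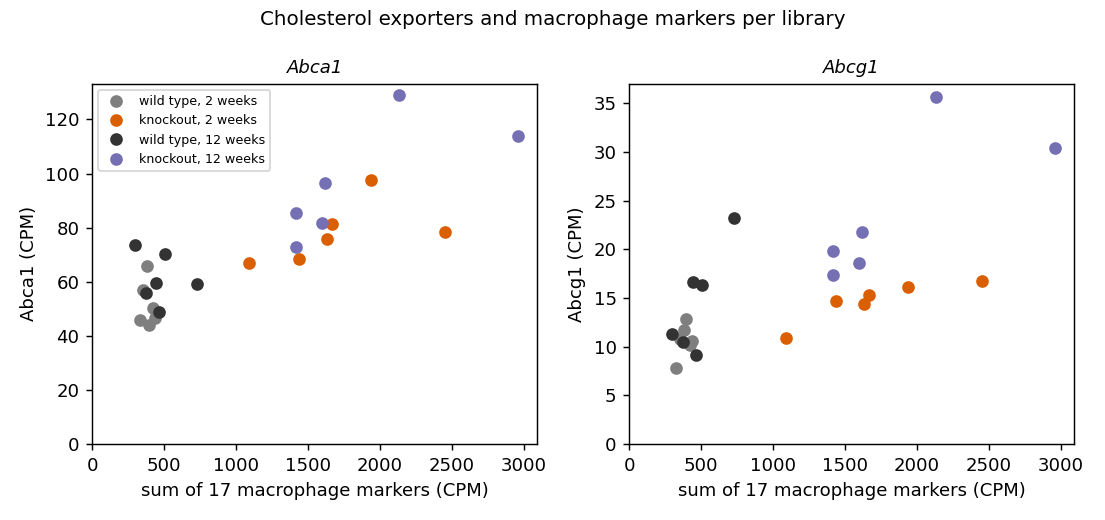
CPM of Abca1 (left) and Abcg1 (right) on the y axes against the summed CPM of 17 macrophage markers on the x axes, 1 point per library, coloured by group. Wild-type libraries lie at sums up to 728 CPM and knockout libraries from 1090 CPM, with the highest exporter levels in 2 knockout libraries at 12 weeks.

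Other cell types that handle much cholesterol were checked by their markers. The 7 adrenal cortex markers summed to 2.76 to 8.28 CPM over all libraries, with the steroid hydroxylases Cyp11b1 and Cyp11b2 at 0 in every group. Fibroblast markers summed to 150 to 220 CPM against 531 to 1430 CPM at 2 weeks and to 131 to 439 against 581 to 1520 CPM at 12 weeks. Adipocyte markers summed to 38.2 to 140 CPM against 41.8 to 71.3 CPM at 2 weeks and to 33.9 to 83.3 against 47.9 to 389 CPM at 12 weeks. At 12 weeks the sums above the wild-type range were 389 CPM in knockout replicate 4, 165 CPM in replicate 5, 153 CPM in replicate 1 and 91.6 CPM in replicate 2. A single marker, Fabp4, made up much of the adipocyte sums. It gave 46.8 of 46.8 CPM in wild-type replicate 6 at 2 weeks and 71.9 of 71.9 CPM in wild-type replicate 4 at 12 weeks. In knockout replicate 4 at 12 weeks it gave 210 of 389 CPM. The part of fibroblasts and adipocytes in the results was not tested.

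Synthesis was set against efflux in each library as the mean log2 (CPM + 1) of the 19 synthesis genes minus that of Abca1, Abcg1 and Nr1h3. This balance was 0.40 ± 0.18 in wild-type and 0.06 ± 0.17 in knockout libraries at 2 weeks, and 0.05 ± 0.28 and -0.49 ± 0.37 at 12 weeks. It was lower in knockout by 0.34 and 0.55, with overlapping libraries at both durations: from 0.17 to 0.59 against -0.14 to 0.28, and from -0.26 to 0.44 against -0.96 to -0.03. Between genotypes the efflux mean was higher in knockout by 0.27 at 2 weeks and 0.35 at 12 weeks, and the synthesis mean differed by -0.07 and -0.20. With Abca1 and Abcg1 alone as the efflux genes, without Nr1h3, the difference was -0.58 at 2 weeks and -0.87 at 12 weeks. With the median over genes in place of the mean, the efflux value is whichever of its 3 genes lies in the middle, and the balance was higher in knockout, by 0.24 and 0.11.

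**Figure D4:**
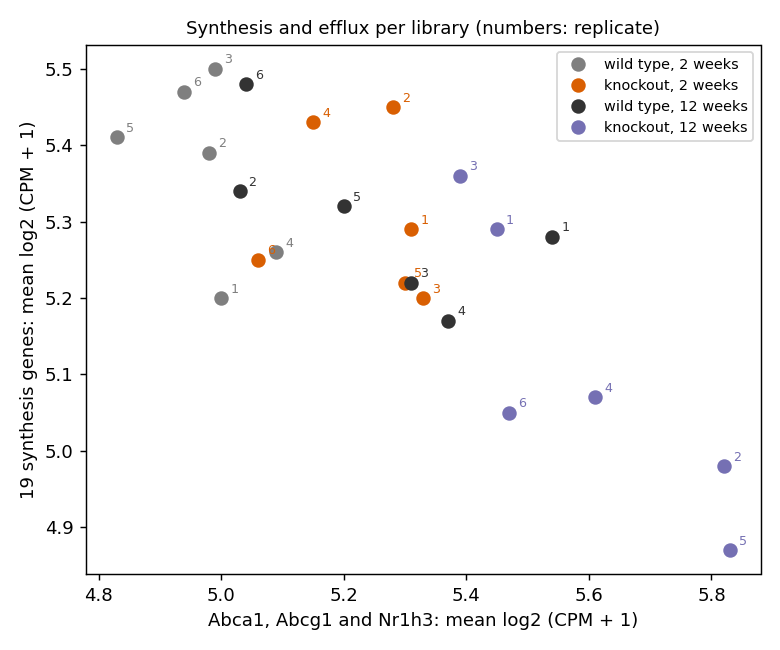
Mean log2 (CPM + 1) of the 19 synthesis genes (y axis) against that of Abca1, Abcg1 and Nr1h3 (x axis), 1 point per library with its replicate number, coloured by group. Knockout libraries at 12 weeks lie lowest and farthest to the right on average (synthesis 5.10, efflux 5.59), with replicates 2 and 5 at the edge.

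Many synthesis genes were high or low in the same libraries of a group. Among knockout libraries at 12 weeks, replicate 3 was highest in its group for 10 of the 19 genes and replicate 1 for 6, while replicate 5 was lowest for 11. Replicate 5 was the library with the most Abca1 and Abcg1, and its balance was the lowest of all, at -0.96. Among wild-type libraries, replicate 6 at 12 weeks was above its group's median for 18 of the 19 genes, and replicate 1 at 2 weeks was lowest for 12. Those libraries had the highest and lowest proximal tubule marker sums of their groups, 62100 and 40800 CPM. Among knockout libraries at 12 weeks, replicate 1 had the highest sum, 43600 CPM, and replicate 5 had 28500 CPM, near the lowest of 27900 CPM. Replicate 3, at 37900 CPM, lay below replicate 6, at 39100 CPM. A single marker, Kap, gave 16100 and 19800 CPM of these last sums, so their order depends on that gene. The part of proximal tubule RNA in these positions was not tested.

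Whether the genotype effect differed between 2 and 12 weeks was tested as an interaction over all 24 libraries. None of the 31 genes was called by edgeR's quasi-likelihood test or by DESeq2, beside 0.174% of all tested genes with edgeR. At an unadjusted p under 0.05 there were 3 genes, Acat2 (-0.31, SE 0.14), Sqle (-0.40, SE 0.19) and Nsdhl (-0.31, SE 0.15), and estimates over the 31 genes ran from -0.40 to 0.27. The calls made at a single duration, such as those of Fdft1, Sqle and Hmgcs1, are therefore not shown to differ between durations.

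Between durations within wild type, 4 of the 31 genes were called, beside 30.4% of all tested genes. Scap (0.34, SE 0.08, adjusted p = 0.0013), Nsdhl (0.27, SE 0.10, adjusted p = 0.046) and Nr1h3 (0.24, SE 0.09, adjusted p = 0.039) were higher at 12 weeks. Dhcr7, the last reductase of one branch to cholesterol, was lower by -0.36 (SE 0.11, adjusted p = 0.017). The calls of Nsdhl and Nr1h3 were each lost without any 1 of 7 of the 12 libraries (adjusted p up to 0.17 and 0.14), and that of Dhcr7 without 2-week replicate 6 (0.05). Within knockout 7 genes were called, beside 33.8% of all tested genes. Abcg1 (0.70, SE 0.19, adjusted p = 0.0063) and Scap (0.30, SE 0.08, adjusted p = 0.0034) were higher at 12 weeks. Acat2, Fdft1, Sqle, Msmo1 and Dhcr7 were lower, by -0.37 for Acat2 to -0.66 for Sqle and Msmo1. Shares of called genes were below those of all tested genes in both genotypes, and these differences carry the limit on duration stated above.

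Further genes of the same pathways, from lists of related genes, moved in both directions. Beside the counts in these lists, 18.2% of all tested genes were called higher and 13.4% lower at 2 weeks. The shares at 12 weeks were 20.7% and 17.7%. Of 9 other genes of the SREBP pathway, 1 was called higher and 1 lower at 2 weeks (median -0.14), and 3 lower at 12 weeks (median -0.08). Aacs, which activates acetoacetate for lipid synthesis, fell at 12 weeks from 158 ± 55.2 to 71.5 ± 34.0 CPM (-1.11, SE 0.31, adjusted p = 0.014). Rdh11, a retinol dehydrogenase, rose at 2 weeks from 18.4 ± 2.57 to 22.9 ± 2.19 CPM (0.34, SE 0.10, adjusted p = 0.013).

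Of 9 other LXR targets, 7 were tested, and 2 were called higher and 2 lower at each duration (medians -0.13 and -0.12). Pltp, the phospholipid transfer protein, rose from 4.80 ± 0.632 to 18.3 ± 5.72 CPM at 2 weeks (1.96, SE 0.18, adjusted p = 3.6e-07) and from 10.9 ± 3.04 to 46.7 ± 14.8 CPM at 12 weeks (2.13, SE 0.24, adjusted p = 4.7e-05). Arl4c, a small GTPase, rose by 1.37 (SE 0.13, adjusted p = 2.3e-07) and 1.66 (SE 0.16, adjusted p = 6.5e-06). Lpl, lipoprotein lipase, fell by 1.02 (SE 0.29, adjusted p = 0.019) and 0.97 (SE 0.12, adjusted p = 4.1e-05). The called genes of this list were thus split evenly between the directions at each duration.

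Of 9 other genes of sterol trafficking, 1 was called higher and 1 lower at 2 weeks, and 2 higher and 3 lower at 12 weeks. Gramd1b, which carries cholesterol from the plasma membrane to the endoplasmic reticulum, fell by 0.55 (SE 0.10, adjusted p = 0.00048) and 0.37 (SE 0.11, adjusted p = 0.014). Lipa, the lysosomal acid lipase, fell at 12 weeks by 0.46 (SE 0.10, adjusted p = 0.0021), and Nceh1, a neutral ester hydrolase, by 0.55 (SE 0.12, adjusted p = 0.0016). At 2 weeks these had -0.06 (adjusted p = 0.65) and -0.17 (adjusted p = 0.19).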

How the data were processed

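RNA of 24 kidney samples (4 groups of 6) was extracted with a Maxwell RSC simplyRNA kit and made into libraries with a NEBNext Ultra kit, per the labels. The values are raw read counts per Ensembl gene; the authors trimmed with fastp, aligned with STAR 2.5 to mm10 and counted with HTSeq 0.6.1, per the submitters' processing notes. The sources used here give no strand setting, annotation release or sequencing run. Library totals of 11.3 to 34.1 megacounts set the counting precision.

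From these counts, edgeR 4.0.16 (R 4.3.3; limma 3.58.1) with TMM scaling, filterByExpr (minimum count 10, minimum total 15) and robust quasi-likelihood tests gave log2 fold changes. Standard errors were taken from the F statistic. Genotype was fitted within each duration on 12 libraries, and the interaction and duration contrasts on all 24. P-values were adjusted by Benjamini-Hochberg over all 17286 genes tested, with a threshold of 0.05. Symbols came from GENCODE M21, which matched 54495 of the 54532 identifiers and left 37 unmatched; all 31 genes and 167 of 167 entries of the 16 other lists matched. The fitting code was tested on simulated counts. No 2 libraries of a group were duplicates, the lowest chi-square per gene over 60 pairs being 6.14. The balance used log2 (CPM + 1) and no test.

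The members and lists were chosen with earlier results of these data known. All 31 genes were eligible to be named; from each other list up to 3 genes with the smallest adjusted p, called at either duration, were named, except 1 gene that is not reported here. Acat3, Ctsb, Lrp2 and Gm42418 were given as checks. Alternatives were other scalings (RLE, upper quartile), DESeq2 1.42.0, other filters, removal of Gm42418 and mitochondrial genes, a replicate block, a fit on all 24 libraries and leaving out each library. Summing Acat2 with Acat3, efflux without Nr1h3 and synthesis without Fdps were added after seeing the data.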

Additional observations from a re-analysis of the deposited data

Results flagged for a closer look

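In 9 of 124 combinations of gene and group, a single library stood apart from the other 5 by Dixon's criterion, where chance gives about 1 in 20. At 2 weeks, knockout replicate 2 was far above its group for Hmgcs1 at 765 CPM, and with it the genotype difference of that gene was not called. Knockout replicate 5 was low for Scap at 54.2 CPM, knockout replicate 6 was low for Abcg1 at 10.9 CPM, and wild-type replicate 5 was high for Lss at 34.8 CPM. At 12 weeks, wild-type replicate 4 was low for Fdft1 at 14.5 CPM, replicate 6 was high for Soat1 at 25.1 CPM and replicate 1 was low for Nr1h2 at 76.9 CPM. Among knockout libraries at 12 weeks, replicate 2 was high for Npc2 at 163 CPM and replicate 5 was low for Nr1h3 at 37.7 CPM. The calls of Soat1 and Nr1h3 at 12 weeks were each lost when knockout replicate 5 was left out.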

How the results depend on the processing

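Of 33 called differences of the 31 genes, tested under 286 combinations of gene and setting other than leaving a library out, 261 kept their direction and call, 24 lost the call and 1 reversed. With 1 library left out, 340 of 396 kept both and 56 lost the call. The reversal was Acat2 at 2 weeks, 0.04 with Acat3 summed. Sqle at 12 weeks, not called, changed sign to -0.01 under the replicate block and in the fit on all 24 libraries, and ranged from -0.09 to 0.09 with 1 library left out. The count of the 31 genes called higher at 12 weeks, 4, fell to 1 without a filter on low counts, 2 under the replicate block and 2 in the fit on all 24 libraries. Abcg1 had adjusted p = 0.074 at 2 weeks in the fit on all 24 libraries and 0.083 at 12 weeks without the filter. Between durations in wild type, the count higher, 3, was 1 under RLE scaling, upper-quartile scaling, no filter, or without Gm42418 and mitochondrial genes, and the count lower, 1, was 2 under upper-quartile scaling, DESeq2 and without those genes. DESeq2 called 154 genes in the interaction, beside 30. The balance was 0.24 and 0.11 with the median over genes, and -0.58 at 2 weeks with Abca1 and Abcg1 alone. The cause of these changes was not tested.

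With 1 library left out, genes called at 2 weeks ranged from 4826 to 6063, with 6 to 8 of the 31 higher and 3 to 8 lower, the 8 without knockout replicate 2. At 12 weeks they ranged from 5515 to 6961, with 1 to 4 higher and 5 to 12 lower. The lowest counts there were 1 higher without knockout replicate 2, and 2 higher and 5 lower without knockout replicate 5; without wild-type replicate 5, 2 were higher. In the interaction 22 to 56 genes and 0 of the 31 were called. Between durations, 4525 to 5031 genes (1 to 3 of the 31 higher, 0 to 4 lower) were called in wild type and 5107 to 5978 (2 to 3 higher, 5 to 6 lower) in knockout. Replicate numbers did not pair the libraries: residuals of same-numbered libraries correlated at -0.14 to 0.17 over 12 pairs. The replicate block ended the calls of Acat2 at 2 weeks (adjusted p = 0.061) and of Hsd17b7 (0.052), Soat1 (0.054) and Abcg1 (0.072) at 12 weeks, and of Nsdhl between durations in wild type (0.071), and no other call. The depth of Fdps, 1 to 32 counts per library, allows no statement on it.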

Other observations

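Receptors that bring lipoproteins into cells were measured beside the 31 genes. Of 9 lipoprotein and scavenger receptors, 5 were called higher and none lower at 2 weeks (median log2 fold change 0.37). At 12 weeks 5 were higher and 2 lower (median 0.62). Over all tested genes 18.2% were called higher and 13.4% lower at 2 weeks, and 20.7% and 17.7% at 12 weeks. The scavenger receptor Msr1 rose from 0.556 ± 0.198 to 4.66 ± 1.40 CPM at 2 weeks (3.04, SE 0.26, adjusted p = 1e-07) and from 1.34 ± 1.54 to 5.35 ± 2.82 CPM at 12 weeks (2.01, SE 0.58, adjusted p = 0.015). Olr1, a receptor for oxidised lipoprotein, was at 0.0746 ± 0.078 against 1.29 ± 0.485 CPM and at 0.0953 ± 0.195 against 1.37 ± 0.653 CPM. Its wild-type libraries lay near 0, up to 0.195 CPM at 2 weeks and 0.488 CPM at 12 weeks. It therefore passed the filter on low counts only through the knockout libraries, and the size of its difference is uncertain. Msr1 was also low in wild-type libraries at 2 weeks, from 0.373 to 0.832 CPM. Lrp1, a relative of megalin, rose by 0.99 (SE 0.14, adjusted p = 4.7e-05) and 0.94 (SE 0.22, adjusted p = 0.0058). Macrophage markers were higher in the same libraries, and their part in these values was not tested.

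Of 6 enzymes that make or break down oxysterols, 1 was called higher and 2 lower at 2 weeks, and 2 higher at 12 weeks. Ch25h, which makes 25-hydroxycholesterol, rose from 1.45 ± 0.516 to 3.01 ± 1.00 CPM at 2 weeks (1.08, SE 0.27, adjusted p = 0.0047) and from 1.16 ± 0.327 to 4.10 ± 0.916 CPM at 12 weeks (1.85, SE 0.23, adjusted p = 3.2e-05). Cyp27a1, which makes 27-hydroxycholesterol, fell at 2 weeks from 58.2 ± 5.78 to 43.5 ± 2.62 CPM (-0.39, SE 0.07, adjusted p = 4e-04). Cyp7b1, which hydroxylates oxysterols further, fell from 186 ± 49.3 to 110 ± 31.3 CPM (-0.73, SE 0.22, adjusted p = 0.024). At 12 weeks the last pair had -0.17 (adjusted p = 0.079) and -0.41 (adjusted p = 0.091).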
